A study of Mus musculus with 6 samples.

Results

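The genes described here make, move, store and export cholesterol, or control how much of it a cell makes. They were taken by symbol from a fixed list of 34 symbols, which stand for 33 genes because Sc4mol is the older name of Msmo1, and all 33 were found among the 23393 rows of the table that name a gene. They fall into 18 enzymes of synthesis, 5 genes that control the SREBP transcription factors, 5 genes of transport and storage, and 5 genes of the liver X receptors (LXR) and their targets. RNA was read from mouse CD4 T cells turned into pathogenic Th17 cells, helper T cells that secrete interleukin-17, by 2 days of stimulation through CD3 and CD28, given with IL-23, IL-1b and IL-6. The mice of both groups were C57BL/6 and carried Stat3CSTOPfl/fl with CD4-Cre, in which Cre, driven by the Cd4 promoter and so active in the T cell lineage from the thymus on, switches on a constitutively active STAT3. The group called Stat3C here had no other change, and the group called Stim1KO Stat3C was also Stim1fl/fl, so that Cre also acted on Stim1, the calcium sensor of the endoplasmic reticulum. Each group had 3 libraries, and the labels do not say whether these came from separate mice, so the p-values rest on the spread from library to library. No group with normal STAT3 is part of this comparison.

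Cholesterol is built from acetyl-CoA through mevalonate, isoprenoids, squalene and lanosterol. When sterols in the endoplasmic reticulum run low, SCAP carries SREBP2 (encoded by Srebf2) to the Golgi, where it is cut and freed to switch on the enzymes of this route and genes of sterol uptake, whereas INSIG proteins hold SCAP back when sterols are plentiful. LXR, which binds oxidised sterols, switches on the exporters Abca1 and Abcg1 and the ubiquitin ligase Mylip. Activated T cells raise sterol synthesis as they grow and divide.

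Because the enzymes are known to share control at their promoters, 4 stretches of DNA upstream of RefSeq start sites are shown (RefSeq, GRCm38.p6), those of an enzyme that was lower in Stim1KO Stat3C (Hmgcs1), of one that was not (Ebp) and of the regulators Insig1 and Srebf2. Bases that GENCODE assigns to exons of coding genes were left off. Capitals mark each CCAAT box, read as CCAAT or on the other strand as ATTGG, and in Hmgcs1 also the single match to the sterol response motif TCACNCCAC, which lies on the shown strand and overlaps no other motif searched.
Hmgcs1 promoter (chr13:119690101-119690350, plus strand): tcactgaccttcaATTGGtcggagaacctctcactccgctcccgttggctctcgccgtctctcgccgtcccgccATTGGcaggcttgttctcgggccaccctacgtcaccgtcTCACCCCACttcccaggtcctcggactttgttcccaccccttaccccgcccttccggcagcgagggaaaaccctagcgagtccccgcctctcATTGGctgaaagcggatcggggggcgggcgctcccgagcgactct
Ebp promoter (chrX:8193513-8193762, minus strand): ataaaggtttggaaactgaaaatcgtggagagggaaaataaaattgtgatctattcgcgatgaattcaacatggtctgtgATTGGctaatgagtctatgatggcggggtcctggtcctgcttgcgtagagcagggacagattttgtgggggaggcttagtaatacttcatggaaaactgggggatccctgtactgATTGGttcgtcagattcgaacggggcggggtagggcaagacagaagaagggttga
Insig1 promoter (chr5:28071162-28071362, plus strand): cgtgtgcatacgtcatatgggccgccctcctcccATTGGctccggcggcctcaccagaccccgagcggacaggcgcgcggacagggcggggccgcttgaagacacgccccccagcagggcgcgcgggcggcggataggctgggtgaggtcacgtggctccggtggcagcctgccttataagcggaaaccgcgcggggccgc
Srebf2 promoter (chr15:82147019-82147180, plus strand): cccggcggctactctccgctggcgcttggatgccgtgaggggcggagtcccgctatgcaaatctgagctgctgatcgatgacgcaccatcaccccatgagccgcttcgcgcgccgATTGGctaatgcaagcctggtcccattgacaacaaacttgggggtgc
In the 250 bases before a listed start site, 14 of the 15 synthesis genes with an entry held a CCAAT box on either strand, against 37.5% of all 27025 genes with an entry and 41.1% of the 8938 of them that were tested here. The Sp1 box GGGCGG was also found in 14 of the 15, against 35.4% of all genes and 64.6% of those tested. TCACNCCAC was found before 1 of the 15, Hmgcs1, and before 1.21% of those tested. The LXR direct repeat, a pair of AGGTCA copies 4 bases apart, was found before none of the 4 LXR genes with an entry and before 0.0148% of all genes. The CCAAT box is the site of NF-Y, a factor known to act beside SREBP, and it stood before enzymes that were lower and before Ebp and Sc5d, which were not. These matches describe letters in the window only.

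Total reads, recovered from the deposited values, were 23135142 to 51444666 per library in Stat3C and 16044623 to 22567296 in Stim1KO Stat3C, so depth did not overlap between the groups. All values are normalised counts, the reads of a gene after the authors' scaling for library size, with means ± SD over n = 3 libraries. Log2 fold changes come from log2(value + 1) and are negative where Stim1KO Stat3C is lower. They were tested two-sided with limma over all 11947 genes with a mean of at least 10, and p-values are Benjamini-Hochberg adjusted over these genes. A gene is said to have risen or fallen only where its adjusted p was under 0.05. As a check of the genotype, Stim1 stood at 1999, 1969 and 1931 in the 3 Stat3C libraries and fell to 811, 794 and 687 in those of Stim1KO Stat3C (adjusted p = 0.000287). Over all tested genes 1623 passed (13.6%), 593 lower (4.96%) and 1030 higher (8.62%). Of the 32 members tested 8 fell, 1 rose and 23 did not pass. Replicate 3 of each group had high Xist (8362 and 11549) with the Y-linked Ddx3y at 0 and 0.995, and the other 4 libraries had Xist of 1.37 to 3.53 with Ddx3y at 1008 to 1362. Each group thus held RNA from animals of both sexes, while nothing shows whether replicates 1 and 2 of a group came from separate animals. Differences are also given within each set of libraries where they matter. Stat3C replicate 2 stood apart: without it 2899 genes passed, and of the 8 macrophage and monocyte markers it had the highest value of the 6 libraries for 6, such as 26.7 for Emr1 and 72.5 for Itgam against at most 3.03 and 14.7 elsewhere. The 2 most abundant did not peak there: Cd68 was 139 against 317 to 396 in Stim1KO Stat3C, and Mrc1, at 68.5, was the lowest of its group.

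The Th17 markers were present, with Cd4 at 7834 to 11543 and Il17a at 409 to 3919 over the 6 libraries. Il17a and Il17f fell and Cd3e rose, and the sum of the 7 Th17 markers was 25619 to 30027 in Stat3C and 17389 to 20202 in Stim1KO Stat3C. Markers of other cells were low, and some moved with the groups. The 5 B cell markers summed to 124 to 352 in Stat3C and 30.1 to 58.9 in Stim1KO Stat3C, where Ms4a1 was at 0 in every library, and 2 of the 4 tested fell, among them Cd79a. Both CD8 T cell markers fell, from a sum of 277 to 453 to one of 111 to 159. The 8 macrophage and monocyte markers summed to 208 to 378 and to 366 to 426, of which 1 of 4 tested rose (Cd68) and 1 fell (Mrc1). Csf1r, Emr1 and Fcgr1 were at 0 in all 3 Stim1KO Stat3C libraries and also in Stat3C replicate 3. They were highest in Stat3C replicate 2 (7.05, 26.7 and 4.03). The 4 dendritic and 4 NK cell markers had means under 10, and Siglech was at 0 throughout. The part of these cells in the results below was not tested. In bulk RNA, fewer cells of a type and less RNA per cell cannot be told apart.

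Most synthesis enzymes had lower values in Stim1KO Stat3C, by small amounts, and the test passed for a minority of them. Of the 18 enzymes 5 fell (27.8%, against 4.96% of all tested genes), Hmgcs1, Idi1, Sqle, Nsdhl and Dhcr7, none rose and 13 did not pass the test. None of the 18 was higher at an unadjusted p under 0.05 in limma, against 2036 of the 11947 tested genes. Neither edgeR nor DESeq2 called any of the 18 higher (7.91% and 10.6% of the genes they tested were higher). A negative log2 fold change was found for 16 of the 18, against 50.2% of all tested genes, and the median was -0.31, against a median of -0.00 over all tested genes. The 3 values of Stim1KO Stat3C lay below all 3 of Stat3C for 7 enzymes (38.9%, against 16.4% of all tested genes) and above them for 1, Ebp (19.2% of all tested genes). Summed over the 18 enzymes, the libraries held 38796, 32260.5 and 40764 normalised counts in Stat3C and 27173, 31896 and 30224 in Stim1KO Stat3C, so the highest Stim1KO Stat3C library lay just under the lowest Stat3C library, and the means differed by -20.1%.

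**Figure D1:**
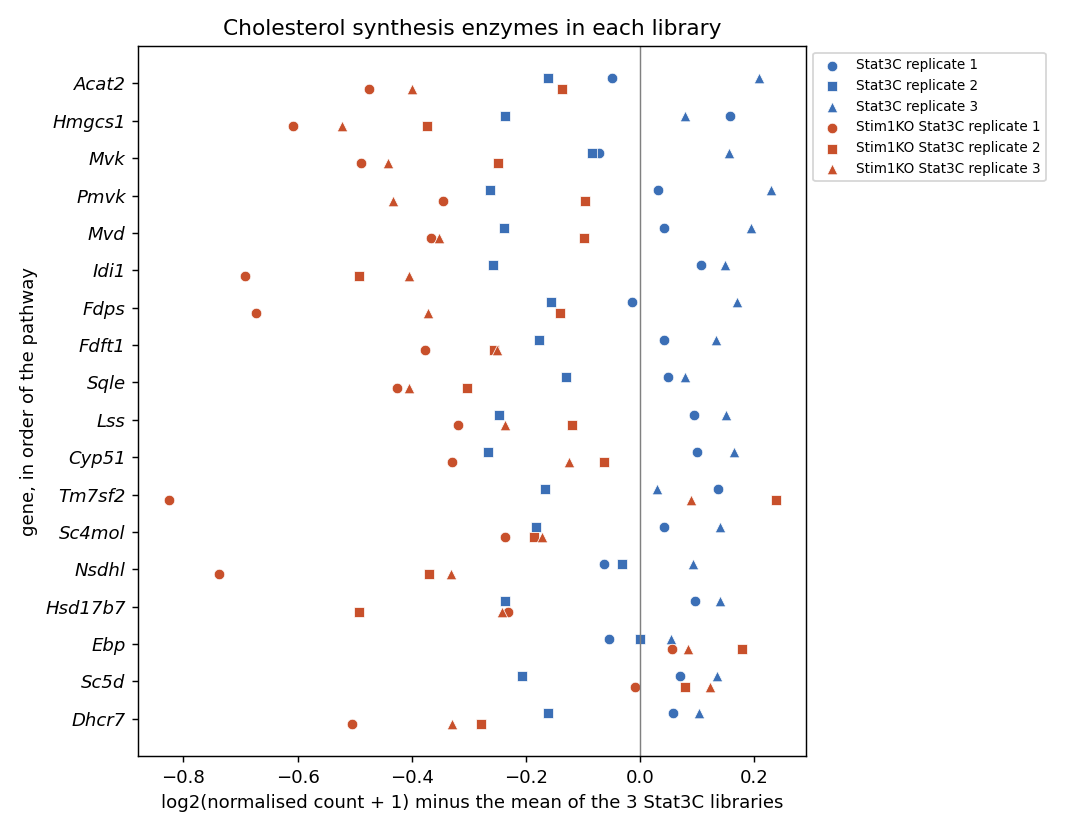
Level of each of the 18 synthesis enzymes in each library, as log2(normalised count + 1) minus the mean of the 3 Stat3C libraries (horizontal axis), with genes in the order of the route. Most Stim1KO Stat3C points (orange) lie left of 0, Stat3C replicate 2 (blue square) is the lowest Stat3C library for 16 of the 18 enzymes, and Ebp and Sc5d stay near 0.

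The first part of the route, from acetyl-CoA to farnesyl diphosphate, had a negative fold change in all 7 members (against 50.2% of all tested genes), with a median of -0.39. Of the 7, 2 fell (28.6%, against 4.96% of all tested genes). Hmgcs1 (chromosome 13, 119690379 to 119708260, plus strand, GRCm38), the synthase that makes HMG-CoA, stood at 4795, 3647 and 4538 in Stat3C against 2819.7, 3317 and 2993 in Stim1KO Stat3C. The groups did not overlap, and the mean fell from 4327 ± 603 to 3043 ± 252 (log2 fold change -0.50, SE 0.11, adjusted p = 0.0211), a 1.42-fold difference. Idi1, which isomerises the C5 isoprenoid unit, had the largest drop of the 18, from 5661, 4395 and 5828 to 3251, 3734 and 3967 (log2 fold change -0.53, SE 0.12, adjusted p = 0.0236). Every Idi1 value in Stim1KO Stat3C lay below the lowest value in Stat3C.
Mvk, mevalonate kinase, stood at 447, 443 and 523 in Stat3C against 334, 395 and 345 in Stim1KO Stat3C without overlap and missed the threshold narrowly (log2 fold change -0.39, SE 0.11, adjusted p = 0.0506). Fdps, which makes farnesyl diphosphate, stood at 4462, 4045 and 5072 in Stat3C against 2827, 4092 and 3485 in Stim1KO Stat3C (log2 fold change -0.39, SE 0.13, adjusted p = 0.0921). Its values overlapped, since replicate 2 of Stim1KO Stat3C lay above replicate 2 of Stat3C. The other members were Acat2, the cytosolic thiolase of the first step (796 ± 107 and 630.1 ± 79.8, adjusted p = 0.112), and the kinase Pmvk and decarboxylase Mvd, with log2 fold changes of -0.29 and -0.27 (adjusted p = 0.197 and 0.179). All 3 had overlapping values.

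Of the 3 enzymes from squalene to lanosterol 1 fell (33.3%, against 4.96% of all tested genes), Sqle. Squalene epoxidase, its product, sets the pace of the later route. Sqle stood at 3064, 2707 and 3126 in Stat3C against 2202, 2399 and 2236 in Stim1KO Stat3C, without overlap (log2 fold change -0.38, SE 0.07, adjusted p = 0.0128), and had the smallest adjusted p of the 18. Fdft1, squalene synthase, stood at 2311, 1985 and 2459 in Stat3C against 1728, 1878 and 1885 in Stim1KO Stat3C, also without overlap, but missed the threshold (log2 fold change -0.29, SE 0.09, adjusted p = 0.0584). Lss, which closes the sterol ring, stood at 2575 ± 367 in Stat3C against 2191 ± 154 in Stim1KO Stat3C with overlapping values (log2 fold change -0.22, SE 0.11, adjusted p = 0.198).

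The 8 enzymes from lanosterol to cholesterol were mixed in sign, with a median of -0.18 and 2 with a positive fold change. Of the 8, 2 fell (25%, against 4.96% of all tested genes). Whether the parts of the route differ was not tested. Nsdhl, an X-linked dehydrogenase of the demethylation steps, stood at 785, 803 and 875 in Stat3C against 492, 635 and 652 in Stim1KO Stat3C, without overlap (log2 fold change -0.48, SE 0.12, adjusted p = 0.0331). Dhcr7, the last enzyme of one branch, stood at 1288, 1107 and 1330.4 in Stat3C against 872, 1020.1 and 985 in Stim1KO Stat3C, again without overlap (log2 fold change -0.37, SE 0.09, adjusted p = 0.0375). Both thus fell by amounts like those of the early enzymes.
Cyp51, the lanosterol demethylase, stood at 5768, 4478 and 6038 in Stat3C against 4282, 5154 and 4939 in Stim1KO Stat3C, with overlap (log2 fold change -0.17, SE 0.12, adjusted p = 0.357, 95% interval -0.44 to 0.10). Sc4mol (Msmo1), the next oxidase, stood at 2027, 1736 and 2169.5 in Stat3C against 1671, 1732 and 1748 in Stim1KO Stat3C (log2 fold change -0.20, SE 0.08, adjusted p = 0.156). Hsd17b7, a sterol reductase, stood at 757 ± 104 in Stat3C against 604 ± 59.9 in Stim1KO Stat3C (log2 fold change -0.32, SE 0.12, adjusted p = 0.121). For each of these 3, it was Stat3C replicate 2 that overlapped with Stim1KO Stat3C.
Ebp, the X-linked sterol isomerase, stood at 1029, 1068 and 1109 in Stat3C against 1111, 1209 and 1132 in Stim1KO Stat3C, with every Stim1KO Stat3C value just above those of Stat3C (log2 fold change 0.11, SE 0.07, adjusted p = 0.307, 95% interval -0.05 to 0.26). Sc5d, the desaturase that follows it, stood at 995, 821 and 1041 in Stat3C against 942, 1001 and 1032 in Stim1KO Stat3C (log2 fold change 0.07, SE 0.10, adjusted p = 0.686, 95% interval -0.16 to 0.29), and its fold change was -0.04 without Stat3C replicate 2. Tm7sf2, a sterol reductase at a low level, stood at 145, 117 and 135 in Stat3C against 74, 156 and 140.3 in Stim1KO Stat3C, with Stim1KO Stat3C replicate 1 alone far below the rest (log2 fold change -0.17, SE 0.28, adjusted p = 0.715), and its fold change was 0.16 without that library. Whether these 3 differ from the other enzymes was not tested.

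**Figure D2:**
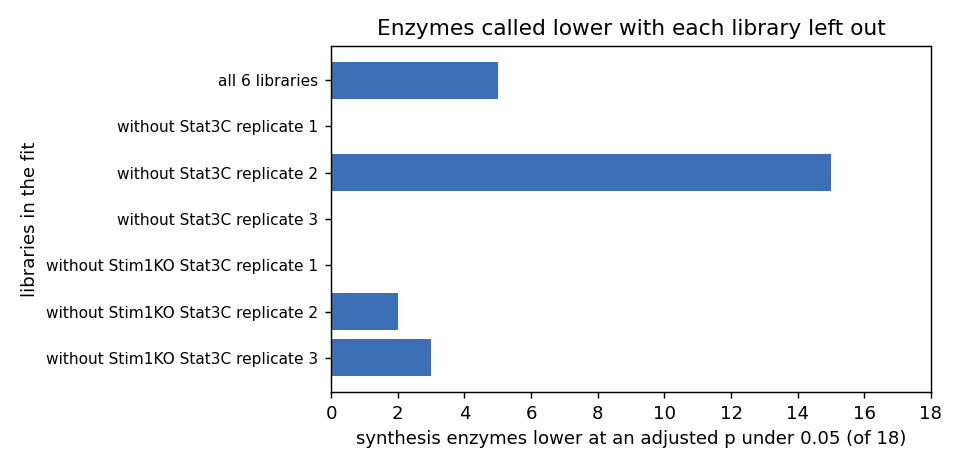
Number of the 18 synthesis enzymes that were lower at an adjusted p under 0.05 (bars) with all 6 libraries and with each library left out of the fit. The number was 5 with all libraries, 15 without Stat3C replicate 2 and between 0 and 3 without any of the other libraries.

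How many enzymes passed rested on single libraries. Without Stat3C replicate 2, 15 of the 18 fell, against 9.98% of all genes in the same fit, and the exceptions were Tm7sf2, Ebp and Sc5d. Without Stat3C replicate 1, Stat3C replicate 3 or Stim1KO Stat3C replicate 1 none passed, and 1.17%, 1.29% and 1.66% of all genes fell in these fits. At an unadjusted p under 0.05, 9, 7 and 8 of the 18 were lower in the same fits, where the share of all genes at that level was not counted. With all 6 libraries, 11 of the 18 and 1677 of the 11947 tested genes were lower at that level. The number was 2 without Stim1KO Stat3C replicate 2 (1.79% of all genes) and 3 without Stim1KO Stat3C replicate 3 (3% of all genes). In these fits the number of enzymes with a negative fold change stayed between 15 and 17. Stat3C replicate 2 had the lowest value of its group for 16 enzymes and Stat3C replicate 3 the highest for 16, while Stim1KO Stat3C replicate 1, the library with the fewest reads, had the lowest value of its group for 16. With all libraries thinned to equal depth 7 enzymes fell (5.13% of all genes), with edgeR on recovered reads 5 (4.7% of all genes), and with DESeq2 8 (8.51% of the genes it gave an adjusted p).
The difference between groups was of the same sign within both sets of libraries set apart by Xist for all 5 that fell. On the log2 scale it was -0.45 for Hmgcs1, -0.52 for Idi1, -0.33 for Sqle, -0.51 for Nsdhl and -0.34 for Dhcr7 in the libraries with low Xist, 2 per group. In the libraries with high Xist, 1 per group and so with no test, it was -0.60, -0.56, -0.48, -0.42 and -0.43 in the same order.

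The genes that control SREBP did not pass the test in any of the 5 cases, and 13.6% of all tested genes passed. In limma 1 of them, Insig1, was lower at an unadjusted p under 0.05, as were 1677 of the 11947 tested genes. Neither edgeR (4.7% of its genes lower, 7.91% higher) nor DESeq2 (8.51% and 10.6%) called any of the 5. Whether these genes differ from the enzymes was not tested. Srebf2, the factor that drives the synthesis genes and is itself one of its targets, stood at 11259, 10086 and 11302 in Stat3C against 9604, 10515 and 9565 in Stim1KO Stat3C (log2 fold change -0.14, SE 0.06, adjusted p = 0.19, 95% interval -0.28 to 0.01). Insig1, an inhibitor that is also an SREBP2 target, stood at 3885, 3065 and 4161 in Stat3C against 2942, 3373 and 2857 in Stim1KO Stat3C (log2 fold change -0.27, SE 0.12, adjusted p = 0.16). Only replicate 2 of each group kept either gene's values from separating. Without Stat3C replicate 2 both fell (limma adjusted p = 0.0409 for Srebf2 and 0.0054 for Insig1), as did 9.98% of all genes in that fit. With any other library left out neither passed, the smallest adjusted p being 0.167 for Srebf2 and 0.166 for Insig1.
Scap, the escort protein of SREBP, stood at 3530.4, 3352 and 3445 in Stat3C against 3114, 3334 and 3191 in Stim1KO Stat3C, close together but without overlap (log2 fold change -0.10, SE 0.05, adjusted p = 0.229). Insig2, the second INSIG gene, stood at 316 ± 23.4 in Stat3C against 336 ± 12.8 in Stim1KO Stat3C (log2 fold change 0.09, SE 0.10, adjusted p = 0.564). Srebf1, which encodes SREBP1, the form that drives fatty acid synthesis and is also an LXR target, stood at 4423, 4251 and 4804 in Stat3C against 4211, 4961 and 4334 in Stim1KO Stat3C, with a 95% interval of the log2 fold change of -0.18 to 0.18. Transcript levels do not show how much of either SREBP was cut and active.

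**Figure D3:**
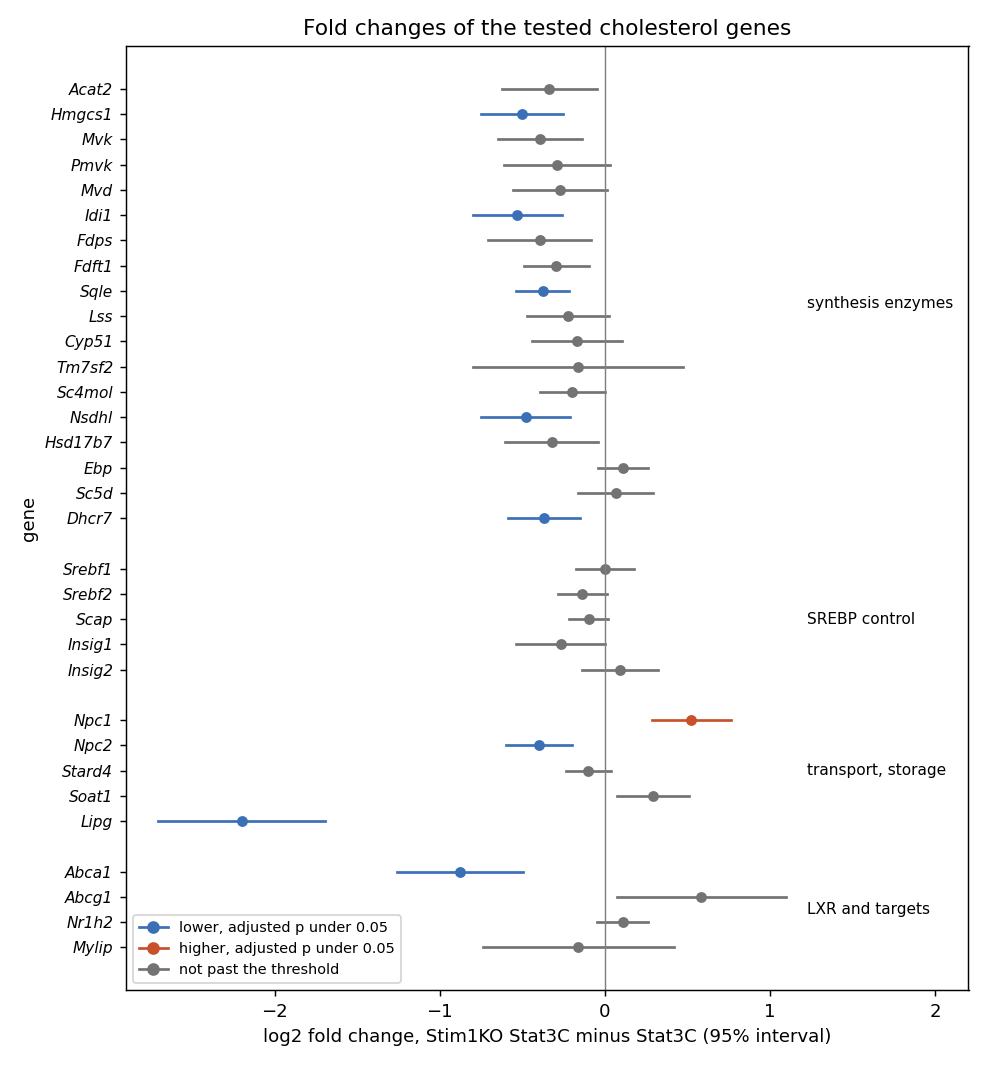
Log2 fold change, Stim1KO Stat3C minus Stat3C, with its 95% interval from limma for the 32 members tested, grouped by role (blue fell, orange rose, grey did not pass an adjusted p of 0.05). The 16 enzymes from Acat2 to Hsd17b7 and Dhcr7 lie below 0 and Ebp and Sc5d above it, Lipg lies far to the left at -2.20, and Abca1 and Abcg1 lie on opposite sides of 0.

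Transport and storage genes moved both ways, and among them was the largest change of the 32 members tested. Of the 5, 2 fell (Lipg and Npc2), 1 rose (Npc1) and 2 did not pass, against 4.96% lower and 8.62% higher of all tested genes. Lipg (chromosome 18, 74939322 to 74961263, minus strand, GRCm38), which encodes endothelial lipase, a secreted phospholipase of lipoproteins, stood at 286, 246 and 328 in Stat3C against 52, 83.8 and 52.7 in Stim1KO Stat3C. The lowest Stat3C value was well above the highest Stim1KO Stat3C value, and the mean fell 4.56-fold, from 287 ± 41.4 to 62.8 ± 18.1 (log2 fold change -2.20, SE 0.22, adjusted p = 0.00165). It passed in all 21 alternative settings.
Npc1 and Npc2, whose proteins hand cholesterol out of the lysosome one after the other, moved apart. Npc1, the membrane transporter, rose from 752, 965 and 756 to 1157, 1224 and 1148, without overlap and 1.43-fold in the mean (log2 fold change 0.52, SE 0.10, adjusted p = 0.0161). Npc2, the soluble carrier that passes cholesterol to NPC1, fell from 9492, 9985 and 8776 to 7021, 8017 and 6409.8, also without overlap (log2 fold change -0.40, SE 0.09, adjusted p = 0.0219). The Npc1 gene shares 511 exonic bases with Rmc1 on the opposite strand, and the sources used here do not state whether counting was by strand. Npc1 kept its call in 15 of 21 alternative settings and Npc2 in 16, and neither passed without Stim1KO Stat3C replicate 1 or without Stat3C replicate 1.
Soat1, which esterifies cholesterol for storage, stood at 761, 614 and 737 in Stat3C against 822, 871 and 883 in Stim1KO Stat3C, without overlap but short of the threshold (log2 fold change 0.29, SE 0.10, adjusted p = 0.0812). Stard4, a carrier of sterol between membranes and a known SREBP2 target, stood at 1447, 1369 and 1482 in Stat3C against 1308, 1359 and 1337 in Stim1KO Stat3C, again without overlap (log2 fold change -0.10, SE 0.06, adjusted p = 0.283). Within the libraries with low and with high Xist the log2 difference was -1.99 and -2.62 for Lipg, 0.48 and 0.60 for Npc1 and -0.38 and -0.45 for Npc2.

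**Figure D4:**
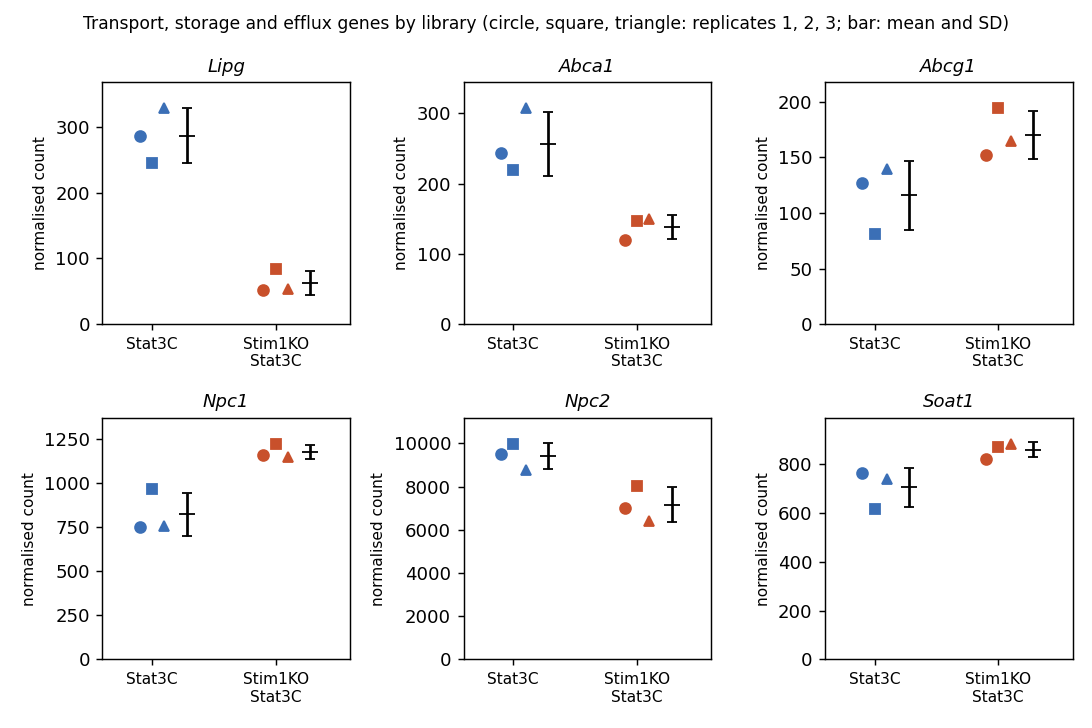
Normalised counts of Lipg, Abca1, Abcg1, Npc1, Npc2 and Soat1 in each library (vertical axes from 0), with the mean and SD of each group of 3 beside the points. Lipg, Abca1 and Npc2 are lower and Abcg1, Npc1 and Soat1 higher in every Stim1KO Stat3C library than in any Stat3C library, and of these Abcg1 and Soat1 did not pass the test. Of the 32 members tested 12 were lower and 4 higher without overlap, against 16.4% lower and 19.2% higher of all tested genes.

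The genes of LXR and its targets were mixed. Of the 4 tested, Abca1 fell and 3 did not pass (4.96% of all tested genes fell), with a median log2 fold change of -0.03. Abca1 (chromosome 4, 53030787 to 53159895, minus strand, GRCm38), which loads cholesterol onto lipid-poor apolipoprotein, stood at 243, 219 and 307 in Stat3C against 119, 146 and 149 in Stim1KO Stat3C. No value overlapped, and the mean fell 1.85-fold (log2 fold change -0.88, SE 0.17, adjusted p = 0.0136). Abcg1, which exports cholesterol to formed lipoprotein particles, stood at 127, 81.1 and 139.5 in Stat3C against 152, 194 and 165 in Stim1KO Stat3C, every Stim1KO Stat3C value being higher (log2 fold change 0.58, SE 0.22, adjusted p = 0.122, 95% interval 0.07 to 1.10). The fold changes of the 2 exporters thus lay on opposite sides of 0, and the 95% interval of Abca1 was -1.26 to -0.50.
Abca1 kept its call in 18 of 21 settings and missed it without Stat3C replicate 1 (adjusted p = 0.0519), Stat3C replicate 3 (0.056) or Stim1KO Stat3C replicate 1 (0.0534). Its log2 difference was -0.80 in the libraries with low Xist and -1.04 in those with high Xist.
Nr1h2, which encodes LXRβ, stood at 1606, 1730.0 and 1560.0 in Stat3C against 1782, 1832 and 1659 in Stim1KO Stat3C (log2 fold change 0.11, SE 0.07, adjusted p = 0.311). Nr1h3, which encodes LXRα, was near the limit of detection, at 10.8, 8.56 and 14.5 (25, 17 and 15 reads) in Stat3C and 2.74, 4.3 and 2.99 (2, 4 and 3 reads) in Stim1KO Stat3C. It had a mean under 10 and was not tested, and without the filter it missed the threshold (limma adjusted p = 0.0793, edgeR 0.109). Mylip, which marks lipoprotein receptors for degradation, stood at 40.7, 45.3 and 58.1 in Stat3C against 42.5, 37.6 and 47.8 in Stim1KO Stat3C (log2 fold change -0.16, SE 0.25, adjusted p = 0.695).

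Set side by side, the synthesis enzymes had a median log2 fold change of -0.31 and the LXR genes one of -0.03, a difference of -0.28 that is given without a test. It lay between -0.40 and -0.19 with 1 library left out. The LXR median is of 4 genes, among them Abca1 and Abcg1 on either side, and so stands for none of them.

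Levels per kilobase of the longest coding transcript spanned a wide range in Stat3C. Fdps was highest (3275 normalised counts per kilobase), followed by Npc2 (2855), Srebf2 (2143) and Idi1 (1749). Among the synthesis enzymes Tm7sf2 was lowest (88.4). The exporters stood far below, Abca1 at 25 and Abcg1 at 19.9, as did Mylip (15.7) and Nr1h3 (5.78). Part of the Fdps level is uncertain, since a same-strand gene model, Gm43738, shares 1124 of its exonic bases, and 6 members in all share exonic bases with another coding gene (Tm7sf2 532 with Vps51 on the same strand, Fdft1 774 with Ctsb on the other). Hmgcs1 and Idi1 share 557 and 323 bases with noncoding models on the opposite strand.

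Further genes of the pathway were drawn from 5 lists with 62 genes, of which 54 were tested, 5 fell and 3 rose (14.8%, against 13.6% of all tested genes). Of the 12 genes of the isoprenoid branch only Fntb passed (8.33%, against 13.6% of all tested genes). Fntb, a subunit of the enzyme that attaches farnesyl groups to proteins, fell from 692 ± 51.4 to 534 ± 34.4 (log2 fold change -0.37, adjusted p = 0.0317). The proteases that cut SREBP, Mbtps1 and Mbtps2, named here after their values were seen, had log2 fold changes of 0.06 and -0.11 (adjusted p = 0.528 and 0.49).
Of the 18 genes of uptake and transport inside the cell 2 fell and 2 rose, against 4.96% lower and 8.62% higher of all tested genes. Scarb1, the receptor for high-density lipoprotein, fell from 2184, 2202 and 2357 to 1538, 1741 and 1752 (log2 fold change -0.42, SE 0.07, adjusted p = 0.00796). Tmem97, a sterol-regulated membrane protein that binds NPC1, fell from 2359, 2138 and 2574 to 1601, 1794 and 1810.2 (log2 fold change -0.44, SE 0.08, adjusted p = 0.0137). Lrp8, a receptor of the lipoprotein receptor family, rose from 1016, 1131 and 1003 to 1643, 1714 and 1482 (log2 fold change 0.62, SE 0.08, adjusted p = 0.00328). Osbpl2, an oxysterol-binding lipid carrier, rose from 791, 815 and 847 to 1093, 1093 and 1087 (log2 fold change 0.42, SE 0.06, adjusted p = 0.0056). None of these 4, named because they passed, overlapped between groups, and Scarb1, Lrp8 and Osbpl2 passed in all 21 alternative settings. Over the 18 genes 3 were lower and 5 higher without overlap, against 16.4% and 19.2% of all tested genes.
Of 7 tested LXR partners and further LXR targets 1 passed (14.3%, against 13.6% of all tested genes). It was Ncoa1, a coactivator of nuclear receptors, which rose from 1014 ± 109 to 1508 ± 140.1 (log2 fold change 0.57, SE 0.10, adjusted p = 0.00988). Scd1, a fatty acid desaturase that LXR and SREBP1 both induce, named here after its values were seen, stood at 600.0, 277 and 829 in Stat3C against 114, 286 and 169 in Stim1KO Stat3C (log2 fold change -1.54, adjusted p = 0.053), again with Stat3C replicate 2 the library that overlapped. The 8 genes not tested had means under 10, and Cyp46a1, Cyp7b1 and Abcg8 were at 0 in every library, which allows up to 1.3 to 4.11 normalised counts (3 reads, counting error only).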

How the data were processed

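RNA was sequenced from 3 Stat3C and 3 Stim1KO Stat3C libraries, made with a stranded mRNA kit per the labels' protocols. Named in the submitters' processing notes, without a role or order, are DESeq2 1.22.2, HTSeq 0.11.1, TopHat2 2.1.1 and mm10. The deposited values are a normalised signal, read counts per gene divided by the authors' size factor per library: 100% of values were whole multiples of 1 step per library (tolerance 0.01), from which reads were recovered. The 27 rows whose names had become dates (at most 0.217% of reads) were left out. Values were tested as log2(value + 1) with limma 3.58.1 (mean of at least 10, variance trend, Benjamini-Hochberg adjustment) in R 4.3.3. edgeR 4.0.16 and DESeq2 1.42.0 on recovered reads were alternatives, and the scripts were tested on simulated data. The members and lists were chosen with earlier results of these data known. Every member was named, and of each list of other pathway genes up to 4 past the threshold by smallest adjusted p. Alternatives changed the pseudocount, filter, scaling, variance model, tool, depth, covariate or libraries used. Some genes that the rule names are not reported here. Replicates were numbered in accession order. Promoters are from RefSeq (GRCm38.p6; 26 of 33 members matched).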

Additional observations from a re-analysis of the deposited data

How the results depend on the processing

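The counts depended on which libraries and which variance model entered the fit. Without the variance trend, 827 genes passed in place of 1623, no synthesis enzyme was lower in place of 5 (0, with 7 at an unadjusted p under 0.05), 2 members were lower in place of 8 and 0 higher in place of 1 (3 at an unadjusted p under 0.05), and 5 other pathway genes passed in place of 8. Of the 827 genes, 224 were lower and 603 higher, and the share of all genes at an unadjusted p under 0.05 was not counted. DESeq2 called 8 synthesis enzymes lower (8.51% of the genes it gave an adjusted p were lower). With 1 library left out, genes that passed numbered 617 to 2899, synthesis enzymes lower 0 to 15, members lower 1 to 20, members higher 0 to 1 and other pathway genes 4 to 12. Of the 11947 tested genes, 140 to 1192 were lower and 477 to 1707 higher in these fits. With library quality weights, chosen after seeing the data, the numbers were 3959, 11, 16, 2 and 19. Of those 3959 genes, 1804 were lower and 2155 higher. With edgeR and without Stim1KO Stat3C replicate 3, also chosen after seeing the data, 922 genes passed, 0 synthesis enzymes (8 at an unadjusted p under 0.05), 2 members lower and 0 higher. Of the 922 genes, 283 were lower and 639 higher, and the share of all genes at an unadjusted p under 0.05 was not counted. Apart from what leaving out libraries itself does to the number of samples, the cause was not tested. Srebf1, at 0.00, turned to -0.011 with median-of-ratios scaling, -0.010 with edgeR without filter, -0.0026 with edgeR, -0.0080 with DESeq2 and -0.028 when thinned, and lay between -0.071 and 0.050 with 1 library left out. Sc5d lay between -0.038 and 0.13 and Tm7sf2 between -0.37 and 0.16 with 1 library left out. Over the named genes, 751 of 860 values kept direction and side of the threshold, 66 lost the call, 33 gained it and 10 turned. This total includes the 23 members that did not pass in the main fit, for which keeping the side meant staying uncalled. Each of the 5 enzymes that fell lost its call in 5 (Sqle) to 7 (Dhcr7) of 21 settings. No paired analysis was possible because the labels give the groups no shared replicate numbers. Depth limits Nr1h3, at 2 to 4 reads per Stim1KO Stat3C library.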
